A study of Phaseolus coccineus with 4 samples.

Results

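Chromosome 9 carried 3995 of the 35556 regions enriched by chromatin immunoprecipitation (ChIP) of the WOX9-like protein in scarlet runner bean (Phaseolus coccineus) seeds. Its members are all peaks that the deposited lists place on sequence Chr09, 3911 of 34876 in replicate 1 and 2642 of 23218 in replicate 2. The peak names were read as naming a common bean assembly, so all positions are taken to be on that species' sequence. Peaks that overlapped by at least 1 bp were merged into regions, and a region with a peak in each list is called shared. Of the 3995 regions, 2358 were shared, 1531 had a peak in replicate 1 alone and 106 in replicate 2 alone. Nothing measured was used to choose the members, but the chromosome was picked with its density profile already known, so that profile is given as a description. The group with peak lists is the ChIP of 2 samples from cultivar Hammond's Dwarf Red Flower, set by the authors against control chromatin. Hand-pollinated flowers gave seeds that were harvested at 6 days, 1.6 to 2.5 mm long and with globular embryos, and the micropylar ends were fixed for 10 min in 1% formaldehyde. Both samples were precipitated with 10 ug of an antibody against a WOX9-like peptide. The other 2 samples of the series are input chromatin of the same material, and they have no list of their own here. No genotype, stage or tissue without the protein was profiled, and whether the replicates are separate plants or days is not stated, so the spread between them may be technical. Since the input samples have no list here, ChIP and input were not tested against each other, and no test was made between chromosomes.

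WOX9 belongs to the WUSCHEL-related homeobox family of plant transcription factors, which bind DNA through a homeodomain. In Arabidopsis, WOX9 is needed for growth and division in the early embryo and its basal lineage, from which the suspensor forms. The scarlet runner bean is a classical system for that lineage because its suspensor is unusually large. The micropylar end of the seed holds embryo and suspensor together with surrounding maternal tissue, so the lists are from a mixture of cell types. Plant chromosomes commonly have gene-rich arms and a repeat-rich, gene-poor stretch around the centromere, and short reads from repeats are hard to place. Where the centromere of chromosome 9 lies, and which genes lie at its regions, was not analysed here, since no sequence or annotation of the files' build was used.

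The first shared region began at position 295124, and the last ended at 38146268 of a span of 38235285 bp, taken as the end of the last peak of either list. Chromosome 9 held 61.7 shared regions per Mb, with 102 replicate 1 peaks and 69.1 replicate 2 peaks per Mb. Each of these was the highest value of the 11 chromosomes. The next was chromosome 7, with 54.6 shared regions, 91.6 replicate 1 peaks and 61.6 replicate 2 peaks per Mb. Shared regions took up 4.13% of the span of chromosome 9, against 1.43% to 3.80% of the spans of the other 10.

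In bins of 1 Mb, counted from the chromosome's start, the 38 whole bins of chromosome 9 held between 15 and 107 shared regions, with a median of 64.5. The median over all 510 whole bins of the 11 chromosomes was 29.5, and 34 of the 38 bins of chromosome 9 lay above it. A bin is called dense here when it held at least 64 shared regions. Of the 38 bins of chromosome 9, 20 were dense, against 25.3% of all whole bins. A bin is called sparse when it held 12 or fewer. Of the bins of chromosome 9, 0 of 38 were sparse, against 25.7% of all whole bins. Each of the other 10 chromosomes had between 4 and 25 sparse bins.

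The profile was uneven, and it is summarised here in 3 stretches. From 0 to 6 Mb there were 214 shared regions, or 35.7 per Mb, and single bins ranged from 15 to 65. From 6 to 29 Mb there were 1658, or 72.1 per Mb, and no bin fell below 45. From 29 Mb to the end there were 486, or 52.6 per Mb, with bins from 28 to 75. These 3 stretches were delimited after the profile was seen, and their bins overlap in count. The bin from 25 to 26 Mb held 47 shared regions, and that from 33 to 34 Mb held 75. The central stretch made up 60.2% of the span and held 70.3% of the shared regions. Both replicates had the same order of the 3 stretches: replicate 1 had 62.7, 118 and 89.3 peaks per Mb from the first to the last, and replicate 2 had 40.5, 80.7 and 58.8.

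The densest bin ran from 11 to 12 Mb, with 107 shared regions, 158 replicate 1 peaks and 126 replicate 2 peaks. The bin from 14 to 15 Mb followed with 98 shared regions, 162 replicate 1 peaks and 109 replicate 2 peaks. The bin from 21 to 22 Mb had 94 shared regions, 147 replicate 1 peaks and 111 replicate 2 peaks. All 3 lie in the middle 50% of the span. Between 10 and 23 Mb, 12 of 13 bins were dense. The exception was the bin from 15 to 16 Mb, which had 45 shared regions and parted a dense run of 5 bins from the longest one, of 7 bins, from 16 to 23 Mb.

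The sparsest bin ran from 4 to 5 Mb, with 15 shared regions, 28 replicate 1 peaks and 18 replicate 2 peaks. Next came 3 bins with 28 shared regions each, from 1 to 2 Mb, from 5 to 6 Mb and from 29 to 30 Mb. They held 52, 40 and 52 replicate 1 peaks and 29, 32 and 29 replicate 2 peaks. These low bins of chromosome 9 lay in its outer parts (the 25% of the span at each end), and its sparsest bin was still above the 12 shared regions that bound a sparse bin. Peaks per bin went together in the 2 replicates (Spearman rho 0.95, Pearson r 0.96, across 38 bins). The bins share libraries and mapping, so these values only describe how alike the profiles are.

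**Figure D1:**
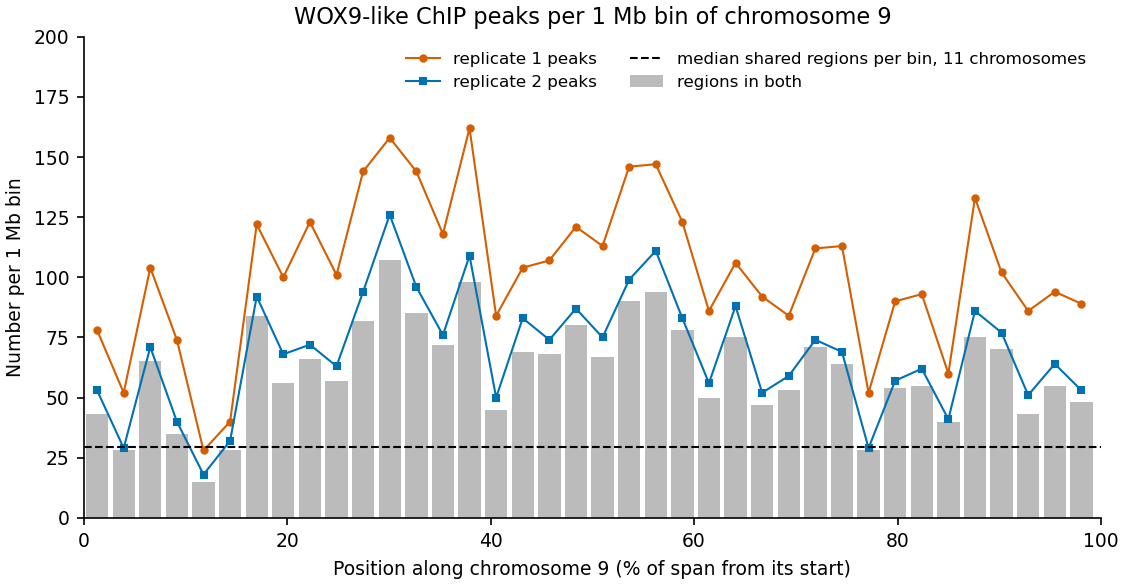
Replicate 1 peaks (circles), replicate 2 peaks (squares) and shared regions (bars) in each whole 1 Mb bin of chromosome 9, against position in percent of the span. The dashed line is the median of 29.5 shared regions per bin over 11 chromosomes, and 34 of the 38 bars stand above it.

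Set beside the other chromosomes, chromosome 9 differed in where its regions lay more than in how dense its dense bins were. The middle 50% of the span held 73.4 shared regions per Mb on chromosome 9, against 8.37 (chromosome 4) to 43.5 (chromosome 6) on the other 10. The outer parts held 49.9 per Mb on chromosome 9, against 38.8 (chromosome 4) to 79.7 (chromosome 7) on the others, where 6 of the 10 were higher. The density of the middle over that of the outer parts was 1.47 on chromosome 9, against 0.155 (chromosome 8) to 0.778 (chromosome 6). The ratio was 1.39 in replicate 1 and 1.47 in replicate 2 on chromosome 9, against at most 0.804 and 0.780 elsewhere.

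The densest bin of chromosome 9 ranked only 7th among the densest bins of the 11 chromosomes, which reached 147 on chromosome 6. The 90th percentile of its bins, 86.5 shared regions, was close to the median of 85.3 over the other 10. When sparse bins were left out everywhere, the mean bin was 61.6 on chromosome 9, 62.1 on chromosome 6 and 62.7 on chromosome 7. This placed chromosome 9 at rank 3 of the 11, as the remaining chromosomes had 35.4 (chromosome 5) to 59.3 (chromosome 3). Its bins were also the most even, with an SD over mean of 0.344, against 0.618 (chromosome 7) to 1.05 (chromosome 11).

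In successive stretches of 10% of the span, chromosome 9 had its highest density in the fourth, 86.6 shared regions per Mb, and its lowest in the first, 42.6. In the fourth the other 10 chromosomes ranged from 4.29 to 16.5 per Mb. In the fifth chromosome 9 had 67.5, against 3.55 to 28.2 on the others. The order was mixed in the seventh, also within the middle 50%, where chromosome 9 had 54.4 per Mb, against 8.53 to 73.7 on the others. There chromosomes 2 (70.1), 3 (73.7) and 6 (68.9) were higher. In the ninth the order was mixed too: chromosome 9 had 56.0 per Mb, against 19.4 to 115 on the others. Successive stretches of 25% of the span of chromosome 9 held 449, 748, 656 and 505 shared regions from start to end. In the third of these chromosome 6 was slightly denser, with 70.3 per Mb against 68.6 on chromosome 9. The shortest stretch with 50% of the shared regions ran from 9.55 to 24.8 Mb and was centred at 44.9% of the span. On the other 10 chromosomes that stretch was centred at 10.6% (chromosome 11) or between 78.5% and 90.5% of the span.

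**Figure D2:**
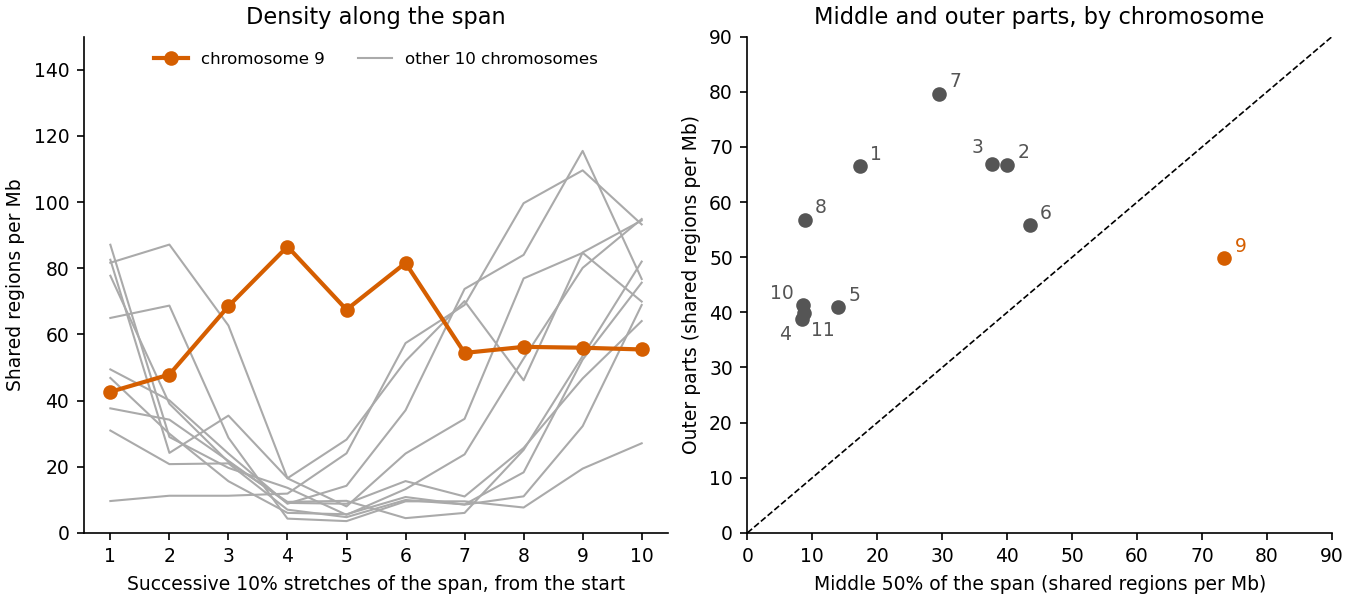
Left, shared regions per Mb in each 10% of the span, from the start, for chromosome 9 (thick line) and the other 10 chromosomes (thin lines). Right, density of the outer parts against that of the middle 50%, 1 numbered point per chromosome, with a dashed line of equal density, below which chromosome 9 lies alone at 73.4 and 49.9 per Mb.

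The evenness of chromosome 9 also showed in the gaps between neighbouring shared regions. The median of its 2357 gaps was 6195 bp, within the range of 5224 to 9324 bp of the other chromosomes, and 19.6% of gaps were shorter than 1 kb, against 17.9% to 22.4%. Local spacing therefore lay inside the range of the other chromosomes. Long gaps did not: 35 gaps of at least 100 kb took up 14.4% of the span of chromosome 9, whereas 49 to 121 such gaps took up 29.99% to 65.9% of the other spans. Gaps of 10 to 50 kb took up 46.1% of the span, against 16.7% to 38.0% elsewhere.

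The 3 longest gaps all lay in the first 6 Mb. The longest was 533 kb, from 4333382 to 4866495, and held 7 peaks of replicate 1 and 0 of replicate 2. It was the shortest of the longest gaps of the 11 chromosomes, the others being 779 kb (chromosome 7) to 3132 kb (chromosome 11) long. The next gap, of 306 kb, ran from 1494661 to 1800453, and the following one, of 297 kb, from 5078639 to 5376078. Each of them held 1 peak of replicate 1 and 0 of replicate 2. The first 6 Mb held 14 of the gaps of at least 100 kb, against 11 in the much longer stretch from 6 to 29 Mb. Median gaps differed less, with 6205 bp in the first 6 Mb, 5768 bp from 6 to 29 Mb and 7849 bp from there to the end. How much of each gap could be mapped is unknown, and its part in the gaps was not tested.

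**Figure D3:**
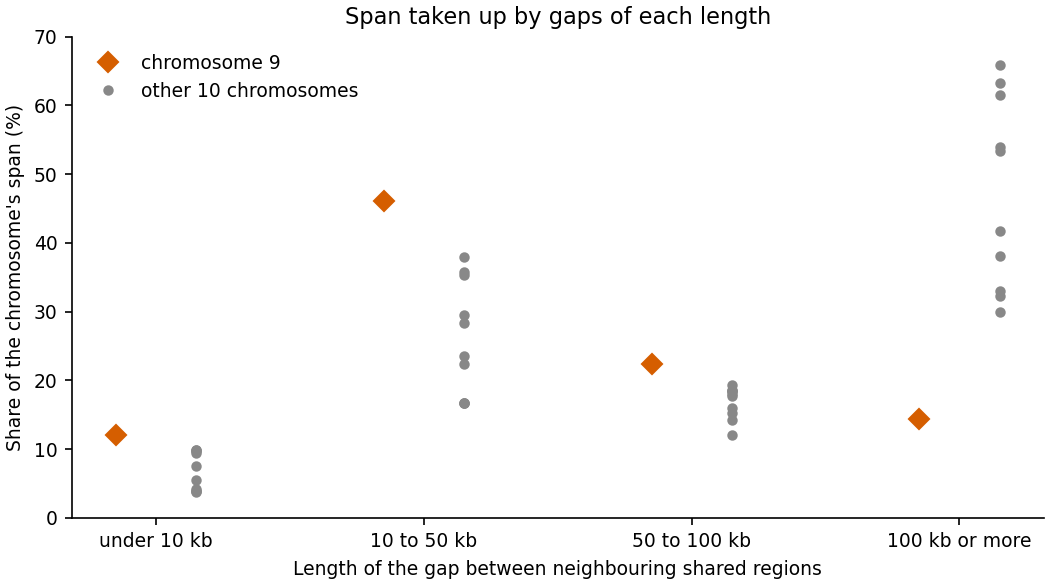
Share of the span, in percent, taken up by gaps between neighbouring shared regions, in 4 classes of gap length. The diamond is chromosome 9 and each dot is 1 of the other 10 chromosomes; in gaps of 100 kb or more chromosome 9 had 14.4% and the others 29.99% to 65.9%.

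Some regions stood close together. The tightest run of 5 successive shared regions spanned 4167 bp, from 37453859 to 37458025, with 144 to 528 bp between neighbours. Fold enrichment in it ranged from 4.86 to 11.9 in replicate 1 and from 5.21 to 16.2 in replicate 2, and the run was made of 5 replicate 1 peaks and 6 replicate 2 peaks. A run of 4601 bp lay from 34861182 to 34865782, with folds of 2.86 to 6.29 in replicate 1 and 2.96 to 9.81 in replicate 2. The third ran over 4750 bp, from 2767710 to 2772459, with folds of 3.57 to 7.31 and 3.59 to 9.35. All 3 runs were in the last 10% or the first 10% of the span. Their bins held 48, 70 and 65 shared regions in the order given, so 2 of the 3 lay in dense bins.

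Widths on chromosome 9 lay within the range of the other chromosomes. The median width of a shared region was 538 bp (quartiles 407 and 780 bp), against medians of 493 to 558 bp on the other chromosomes. Peaks had a median width of 416 bp in replicate 1 and 351 bp in replicate 2, against 405 and 352 bp over the peaks of the other 10 chromosomes. A width of 1500 bp or more was reached by 113 of the 2358 shared regions (4.79%, 95% Wilson interval 4.001 to 5.73), where 4.66% of all shared regions of the series reached it. Median width per bin ranged from 437 to 622 bp and bore little relation to density (Spearman rho −0.08 across 38 bins).

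The widest shared region spanned 4290 bp, from 8247051 to 8251340, and was 1 peak in each list. Its folds were 8.50 in replicate 1 and 5.65 in replicate 2, and the summits were 3836 bp apart, near opposite ends of the region. These 2 folds were thus measured at different places within it. A region of 4100 bp, from 523480 to 527579, had folds of 5.51 and 6.54 with summits 21 bp apart. The third, of 4064 bp from 7322705 to 7326768, was stronger, with folds of 13.7 and 15.7. It was 1 peak in replicate 1 and 3 peaks in replicate 2, with the highest summits 770 bp apart.

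Fold enrichment is the authors' own value for each peak, the ChIP signal at the summit over that of the control. Its medians varied little along the chromosome. The median fold of all peaks on chromosome 9 was 4.35 in replicate 1 and 5.00 in replicate 2, against 4.35 and 5.08 over the peaks of the other 10 chromosomes. The median of the lower of the 2 folds was 4.68 over the shared regions of chromosome 9, against 4.68 (chromosome 1) to 4.92 (chromosome 5) on the others. By stretch it was 4.83 from 0 to 6 Mb, 4.66 from 6 to 29 Mb and 4.70 from there to the end. By bin it ranged from 3.94 to 5.52 and bore little relation to the number of shared regions (Spearman rho −0.04 across 38 bins).

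The local control background, computed from the deposited fold and p-value, was slightly lower in the first 6 Mb. Its median at replicate 1 peaks was 16.7, 17.0 and 16.8 in the 3 stretches from start to end, and at replicate 2 peaks 7.74, 8.60 and 8.60. Not each bin of the first 6 Mb lay lower: from 1 to 2 Mb the medians were 17.3 in replicate 1 and 8.60 in replicate 2. The bins with more shared regions had somewhat higher replicate 2 backgrounds (Spearman rho 0.36 across 38 bins, and 0.24 for replicate 1). The median replicate 1 peak of chromosome 9 rested on 77 ChIP fragments at its summit and the median replicate 2 peak on 45.

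Strong regions were spread over the whole chromosome. Both folds were 10 or higher in 189 of its 2358 shared regions (8.02%, 95% Wilson interval 6.99 to 9.18), as in 8.78% of all shared regions of the series. Each of the 38 whole bins held at least 1, and at most 11, of them. In successive 25% stretches of the span they numbered 35, 58, 50 and 46. Per Mb this was 4.94 on chromosome 9, just under the 5.02 of chromosome 7 and above the other 9. Among the 200 shared regions with the highest lower fold in the series, 17 (8.50%) lay on chromosome 9, which held 11.4% of all shared regions.

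**Figure D4:**
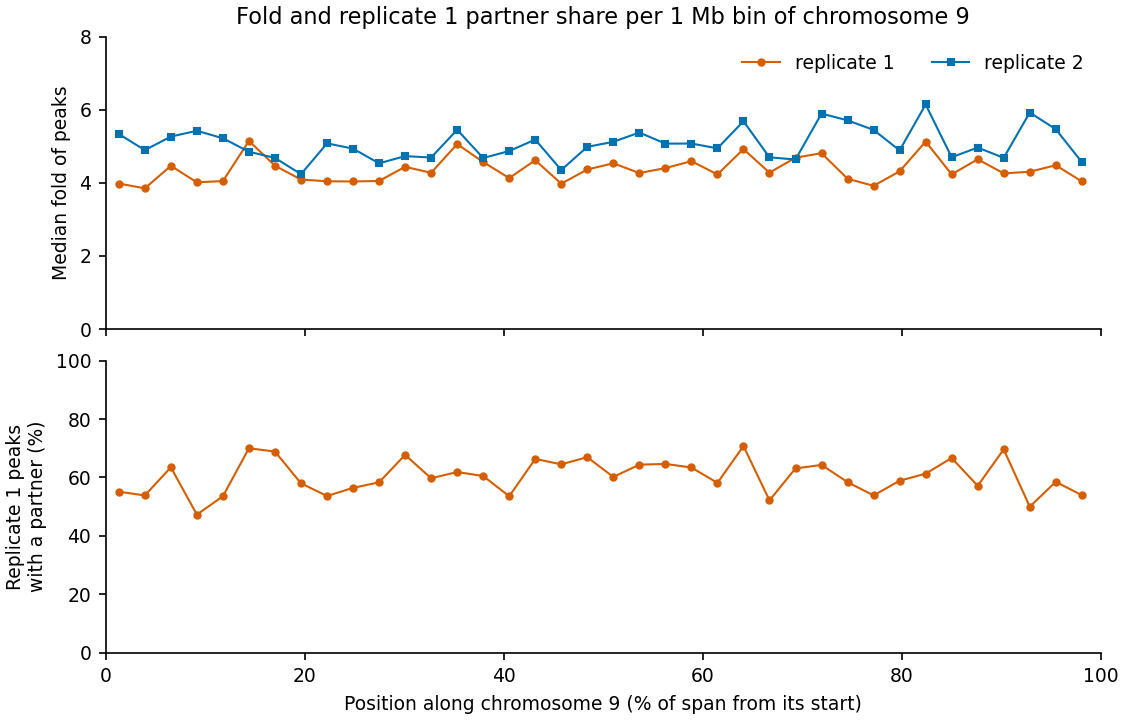
Top, median fold enrichment of the peaks in each whole 1 Mb bin of chromosome 9 in replicate 1 (circles) and replicate 2 (squares). Bottom, percent of replicate 1 peaks with a replicate 2 partner in the same bins, between 47.3% and 70.8%; the median fold over all peaks was higher in replicate 2 in 36 of 38 bins, whereas at shared regions the fold was higher in replicate 2 in 45.2%.

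The 10 strongest shared regions by the lower of their 2 folds reached at least 15.6 in both replicates, and the region next in order had 15.6 as well. Of the 10, 7 lay in the middle 50% of the span, near the share over all shared regions of the chromosome, of which 40.5% lay in the outer parts. In 8 of the 10 the fold was higher in replicate 2, whereas over all shared regions of the chromosome it was higher there in only 45.2%. They were 441 to 2194 bp wide, each was 1 peak in each list, and their summits differed by at most 75 bp. Among the 20728 shared regions of the whole series they ranked between 18 and 133.

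The strongest lay from 25001510 to 25002197, where 212 fragments of replicate 1 and 125 of replicate 2 covered the summits. Its folds were 19.3 (exact 95% Poisson interval of the fragment count 16.8 to 22.0) and 23.8 (interval 19.8 to 28.3), or 21.5 ± 3.20 (SD, n = 2). The intervals overlap, but they hold for the counting of ChIP fragments alone, and PCR copies are not independent molecules. Its bin, from 25 to 26 Mb, was among the thinner ones of the middle, with 47 shared regions.

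The second lay from 9591874 to 9592396, with folds of 16.8 and 18.5, or 17.7 ± 1.26 (SD, n = 2). It followed a gap of 25231 bp and stood 586 bp before the next shared region. The third lay from 28211141 to 28212775 and was 1635 bp wide, with summits 1 bp apart. Replicate 1 gave a fold of 16.7 (interval 14.9 to 18.7), and replicate 2 gave 21.7 (interval 18.8 to 24.9), so the intervals did not overlap.

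The fourth lay from 20386920 to 20387804, with folds of 16.2 and 17.8, in a bin of 90 shared regions. The fifth was the widest of the 10, at 2194 bp from 12701059 to 12703252, with folds of 16.2 and 17.6. A gap of 54386 bp followed it, although its bin held 85 shared regions. The sixth lay from 27631881 to 27632716, where replicate 1 gave 15.9 (interval 13.97 to 18.1) and replicate 2 gave 22.1 (interval 18.5 to 26.1). It and the third were the 2 of the 10 whose intervals did not overlap. At the sixth the background in replicate 2 was 5.16, below the chromosome's median of 8.60 for that replicate.

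The other 4 were alike in both replicates or higher in replicate 2. The region from 9111234 to 9112507 had folds of 17.0 and 15.9. The region from 31639574 to 31640195 had 16.2 and 15.9, or 16.0 ± 0.233 (SD, n = 2), the closest match of the 10. The region from 14368537 to 14368977, in the second densest bin of the chromosome, had 15.6 and 16.1. The region from 32183017 to 32183580 had 15.6 in replicate 1 and 19.8 in replicate 2, with the next shared region 84 bp away.

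Ranking by the lower fold passes over regions that were very strong in 1 replicate. The highest replicate 1 fold of the chromosome, 24.0 (interval 21.4 to 26.8), was at the region from 34565287 to 34568202, where replicate 2 had 12.7 (interval 10.9 to 14.6). Its ChIP fragments numbered 313 and 186, over backgrounds of 12.0 and 13.8. The highest replicate 2 fold, 30.2 (interval 25.3 to 35.7), was at the region from 5651231 to 5652226, where replicate 1 had 13.9 (interval 12.1 to 15.8). There the fragments numbered 133 in replicate 2 and 222 in replicate 1, over backgrounds of 3.44 and 15.0. This strongest replicate 2 region stood in the first 6 Mb, in a bin with 28 shared regions. Both regions were singled out after their values were seen. Median backgrounds at chromosome 9 peaks were 17.0 in replicate 1 and 8.60 in replicate 2. Raw backgrounds therefore do not compare directly between the replicates, and background is the divisor of the fold. Summits of the 2 regions were 15 and 23 bp apart in the order given.

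The shares of chromosome 9 peaks found in both replicates were near those of the whole lists. Of its replicate 1 peaks, 2380 of 3911 had a replicate 2 partner (60.9%, 95% Wilson interval 59.3 to 62.4), where 60.0% of the whole list did. Of its replicate 2 peaks, 2536 of 2642 had a replicate 1 partner (95.99%, interval 95.2 to 96.7), where 96.2% of the whole list did. Among the 25% of replicate 1 peaks with the highest folds in the list, 95.6% of those on chromosome 9 had a partner, and among the lowest 25%, 22.4% did. In replicate 2 these shares were 100% and 88.6%. The other 10 chromosomes were close, with 95.1% and 23.7% in replicate 1 and 99.9% and 90.6% in replicate 2. Partnered replicate 1 peaks of chromosome 9 were stronger and wider, with medians of 5.59 for the fold and 520 bp for the width. The rest had 3.14 and 298 bp. On the other 10 chromosomes these medians were 5.82 and 524 bp with a partner, and 3.19 and 292 bp without.

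The partner share of replicate 1 peaks moved along the chromosome with density (Spearman rho 0.56 across 38 bins). It was 57.2% from 0 to 6 Mb, 61.8% from 6 to 29 Mb and 59.3% from there to the end. The lowest bin, from 3 to 4 Mb, had 47.3%, and the highest, from 24 to 25 Mb, had 70.8%. Since shared regions enter both measures, part of this relation is built in. Replicate 1 peaks per replicate 2 peak ranged from 1.20 to 1.85 over the bins, the extremes being those same 2 bins in reverse order.

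Fold at shared regions of chromosome 9 went together in the replicates (Spearman rho 0.71, Pearson r of log2 fold 0.72, across 2358 regions, which share libraries and controls). Replicate 2 over replicate 1, the log2 ratio of folds had a median of −0.08 and varied among regions with an SD of 0.53. The fold was higher in replicate 2 in 45.2% of them, against 45.7% on the other 10 chromosomes. There rho ranged from 0.675 to 0.725 and the SD from 0.528 to 0.563. The 2 folds differed by more than 2-fold in 152 regions (6.45%), where 6.70% of all shared regions did. The ratio of folds ran opposite to the ratio of control backgrounds (Pearson r −0.70 on the log2 scale, across the same regions), as the background is the divisor of the fold. The controls bear different names in the 2 lists, and their part in the differences was not tested.

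Summits of the 2 replicates were a median of 35 bp apart, and 86.6% (interval 85.1 to 87.9) lay within 100 bp, against 84.0% to 85.8% on the other chromosomes. A single peak in each list made up 2187 of the 2358 shared regions (92.7%), and 92.7% on the other 10 chromosomes. In 149 (6.32%, against 6.42% elsewhere), 1 replicate 1 peak covered several replicate 2 peaks, up to 5. In 16 (0.68%, against 0.62%) the reverse held, and 6 (0.25%, against 0.30%) had several in both.

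**Figure D5:**
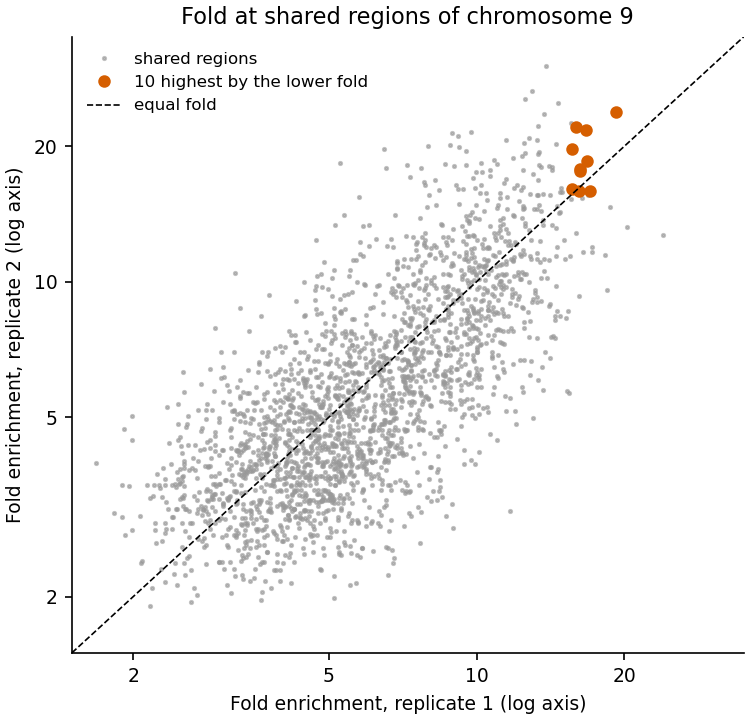
Fold enrichment of the 2358 shared regions of chromosome 9 in replicate 1 and replicate 2, on log axes, with a dashed line of equal fold. The 10 strongest by the lower fold (large points) lie above 15.6 in both, and 8 of them were higher in replicate 2.

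Few strong peaks lacked a partner, on chromosome 9 as on the others. Among its replicate 1 peaks of fold 10 or more, 339 had one and 3 did not. On the other 10 chromosomes 2714 such peaks had one and 48 did not. The strongest without one lay from 25783990 to 25784616, at a fold of 14.1 (interval 12.1 to 16.3). It rested on 183 fragments, and 3238 bp parted it from the closest replicate 2 peak. The second lay from 27078285 to 27078832, at a fold of 11.5 (interval 9.40 to 13.9), and the third from 10232262 to 10232653, with 10.9 (interval 8.89 to 13.2). Their backgrounds, 12.0, 8.00 and 8.32, were below the median of 17.0 over the replicate 1 peaks of the chromosome. Background is the divisor of the fold, so a choice by fold favours low values. The replicate 1 backgrounds of the 10 strongest shared regions, 10.0 to 16.6, were below that median too. All 349 replicate 2 peaks of fold 10 or more had a partner. On the other 10 chromosomes 2772 such peaks had one and 1 did not. The strongest replicate 2 peak without one lay from 16517443 to 16517699, at a fold of 6.98 (interval 5.08 to 9.38) on 42 fragments. The next, from 25966353 to 25966543, had a fold of 5.19, and 1 bp lay between it and a replicate 1 peak. The third lay from 7098042 to 7098295, with a fold of 5.18 on 22 fragments.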

How the data were processed

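Per the submitters' processing notes, Bowtie 0.12.7, SAMtools 0.1.18 and MACS2 were used, with no settings or MACS2 version given. The authors deposited 1 peak list per ChIP sample, with fold enrichment of the summit over control (a ratio), −log10 p and −log10 q, and a score. The lowest deposited −log10 q was 2.00 and 2.03. Per the deposited peak names, the control was called noAb in replicate 1 and input in replicate 2, so folds may rest on different kinds of control. The names end in Pv442, read here as a common bean assembly, so sequence that differs between the species may be missing. A gene table of another assembly was not used.

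Peaks were merged at an overlap of 1 bp with Python 3.11.15 and pandas 2.3.3, and positions count from 1. Total depth is unknown. ChIP fragments at each summit were computed from MACS2's definitions, with fold being (pileup + 1) divided by (background + 1) and p the Poisson tail above the pileup, with ChIP counts scaled by 0.994 in replicate 1. They gave the deposited p within 0.002 in −log10 for 99.7% and 100% of peaks. Merging, bins and counts were tested on simulated data. Shares carry 95% Wilson intervals for counting error only.

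Chromosome, lists and rules were chosen with earlier results of these data known. The regions named are the 10 shared ones with the highest lower fold, and 3 each of the widest regions, longest gaps, densest and sparsest bins, tightest runs and strongest unshared peaks of each list. Because 3 bins tied, 4 sparsest are given.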

Additional observations from a re-analysis of the deposited data

How the results depend on the processing

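Of 58 alternative values, 29 stayed within a set limit and 29 moved beyond it. The limit was the replicate spread, the counting interval or, for a count or a stretch length, 1.5 times. For rho it was an interval that treats regions as independent. For summit distance it was the SD among regions, a wide limit. Changes of direction were not assessed, as most of these values have none. The share in the outer parts was 40.4% to 41.0% with stricter peaks or a span from the first peak and 40.5% to 41.9% with 1 replicate left out, and outer parts of 10% at each end held 15.9% for 20% of the span. A fold of at least 5 left 1058 shared regions, 27.7 per Mb, a median gap of 15701 bp, width 688 bp, fold 7.27, a rho of fold of 0.52, and partner shares of 67.3% and 83.4%. A −log10 q of at least 5 gave a rho of 0.69 and partner shares of 59.2% and 96.7%. Lists of equal length gave 77.9% and 82.9%, overlap of 50% of both peaks 49.9% and 73.9%, and summits within 100 bp 52.8% and 78.2%. With 1 replicate left out, density was 69.1 to 102 per Mb, the median gap 3886.5 to 5136 bp, the median width 351 to 416 bp, the median fold 4.35 to 5.00, and the dense stretch 6 to 7 Mb. The dense stretch was 14 Mb long (10 to 24 Mb) with 2 Mb bins and lay from 9.5 to 15 Mb with 500 kb bins. With a fold of at least 5 it lay from 10 to 15 Mb, outside the 16 to 23 Mb reported. With 500 kb bins, 0.5 Mb was sparse (4.5 to 5 Mb), and, chosen after seeing the data, bins below the chromosome's own median ran for at most 5 Mb (28 to 33 Mb). Of the 10 named regions, ranking by geometric mean fold again picked 4, and ranking by the lower −log10 q picked 3. No paired analysis was possible because only ChIP samples have lists, so no 2 groups with common replicate numbers can be set against each other. Total depth and mappability per bin are unknown, and a median of 77 and 45 summit fragments limits single folds.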
